A study of Mus musculus with 6 samples.

Results

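Solute carriers for sugars, peptides, amino acids, nucleosides, vitamins, phosphate, sulfate and zinc were followed in epithelial cells of the mouse small intestine. The members were a list of 36 genes chosen by function, with earlier results of these data known. Of these, 35 had at least 1 probe set that the platform annotation pairs with that gene alone, and all 35 reached the detection filter, among 12994 genes tested in all. The exception was Slc28a2, a concentrative nucleoside carrier, whose probe set is also paired with Slc28a2b, so no value is given for it.

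RNA came from C57BL/6 mice aged 14 days, which are still suckling. In 3 samples, called replacement here, the genotype is labelled Ecadflox/Ncad;Vil-Cre: a floxed E-cadherin allele, an N-cadherin allele and a Cre recombinase whose villin promoter is active in gut epithelium, so that N-cadherin stands in for E-cadherin in the gut lining. The 3 control samples came from littermates positive for E-cadherin, whose alleles are not given further. The epithelium was detached from the small intestine with EDTA, which leaves mixed epithelial cell types, and each sample was hybridized to 1 Affymetrix array. Whether each sample came from 1 animal is not stated, so how much of the spread behind the p-values lies between animals is not known. Each group held samples of both sexes, by the sex-linked genes read below, so the spread is not technical alone.

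Nutrient uptake by an enterocyte takes 2 steps. Carriers in the brush border, the apical membrane facing the lumen, load sugars, peptides and amino acids into the cell, often with sodium or protons. Carriers in the basolateral membrane then release them toward the blood. Some basolateral amino acid carriers work as pairs of a light chain, which moves the amino acid, and the heavy chain Slc3a2. Other carriers in the list, such as Slc7a1, Slc7a5, Slc1a5 and Slc38a2, serve the cell's own supply and are known for high levels in growing cells.

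The arrays were comparable in scale, with a trimmed mean intensity of 100 on each and between 55.1% and 61.8% of probe sets at an intensity of 16 or more, the floor used here. Control 2 and control 3 had log2 ratios with an SD of 0.115 over 5109 bright probe sets, within the 0.0812 to 0.134 of hybridization controls over all array pairs, against 0.347 to 0.564 for other pairs within a group. Their mean therefore stands as a single control replicate, so that n = 2 in the control and n = 3 in the replacement group. Cdh1 (E-cadherin) read 2757, 2335 and 2204 in the control arrays and 1073, 1175 and 1357 in the replacement arrays, while Cdh2 (N-cadherin) reached at most 13.5 on any array, under the floor. Cdh1 was thus lower in every replacement array (log2 difference -1.06, SE 0.240, adjusted p = 0.0252), and Cdh2 gave no check of the labels. All 19 enterocyte markers with a probe set (of 20 listed) reached the floor on at least 3 arrays. Their summed intensity was 55952 to 59468 in the controls and 50100 to 67173 in the replacement samples. Of the 19, 2 passed (10.5%, against 9.17% of all genes tested). Krt20 rose (1882, 925 and 946 against 3798, 3167 and 3231, limma adjusted p = 0.0279) and Anpep fell (adjusted p = 0.0422). Replacement arrays lay above all controls in 3 markers and below them in 2, or 26.3%, against 36.7% of all genes tested. Control 1 stood apart. Its summed intensity of 11 stromal markers was 1540, against 338 and 352 in control 2 and control 3 and 539 to 613 in the replacement samples. Fabp6, a bile acid binding protein of the ileum, was listed at 0.3 in control 1, against 808 and 824 in the other controls and 267 to 686 in the replacement samples. By Xist and Y-linked Eif2s3y, control 1, replacement 2 and replacement 3 were female and the rest male. The sum of 8 crypt and proliferative markers overlapped, at 5540 to 6177 in the controls and 5646 to 7131 in the replacement samples. Mki67, Top2a, Pcna and Mcm5 lay higher and Lgr5 and Olfm4 lower in every replacement array. These were 75.0% of the 8, where 36.7% of all genes tested did not overlap. Mcm5 alone passed (2.68-fold higher, limma adjusted p = 0.0129). Sums of some other marker lists were apart between the groups. The sum of 11 immune markers was 2767 to 3107 in the controls and 1146 to 1802 in the replacement samples, with 4 of the 11 under the floor on every array. This sum was mostly Csf1r, a macrophage receptor (2427, 2442 and 2504 against 1271, 777 and 738), and the other 5 tested immune markers overlapped between the groups. For 9 enteroendocrine markers it was 3013 to 3634 and 1274 to 2377. The sum of 8 markers of distal small intestine was 9953 to 16436 and 7169 to 8859. That of 9 proximal markers was 15629 to 16593 and 9612 to 15037. Differences were below 0 in 6 markers of each list and above 0 in 2 distal and 3 proximal ones. Among the latter, distal Slc10a2 went from 0.8, 1.3 and 2.1 to 18.7, 66.5 and 38.2 and did not pass. Proximal Adh6a rose, from 291, 103 and 105 to 719, 723 and 609 (limma adjusted p = 0.0140). The sum of 2 adult-type enterocyte markers was higher in each replacement sample (472, 147 and 158 against 732, 748 and 496). Of these, Arg2 rose (187, 38.4 and 54.6 against 536, 536 and 363, adjusted p = 0.0201) and Treh overlapped. What part these differences had in the results below was not tested.

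Of the 35 carriers, 6 fell, 2 rose and the others did not pass the test. A difference below 0 was seen in 24 (68.6%), some well within their SE, against 52.0% of all genes tested, and the median difference (replacement minus control, log2) was -0.37, against -0.02 over all genes tested. The carriers past a limma adjusted p of 0.05 made up 22.9% of the 35, where 9.17% of all genes tested passed, 4.63% as lower and 4.54% as higher. The 6 that fell were Slc2a2, Slc23a1, Slc7a2, Slc7a8, Slc43a2 and Slc38a1, and those that rose were Slc13a1 and Slc22a4. Slc22a4, Slc13a1 and Slc7a2 reached the filter only through the group in which they were high, so the count includes 3 carriers that the filter itself favoured. With no filter on dim probe sets, 3 of the 35 passed: Slc2a2 (adjusted p = 0.0330), Slc7a2 (adjusted p = 0.0462) and Slc13a1 (adjusted p = 0.0248), while Slc22a4 did not (adjusted p = 0.119). In 26 carriers (74.3%) every replacement array lay on one side of all control arrays, 17 with lower and 9 with higher replacement values. Over all genes this share was 36.7%, with 18.8% lower and 17.8% higher. The carriers were listed with earlier results of these data known, so these shares do not test them as a list. In bulk RNA, fewer cells of a type and less RNA per cell cannot be told apart.

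The calls rested on few control replicates. Without control 1, Slc13a1 alone passed, and without control 2 and control 3 together none of the 35 did (limma, 11 at an unadjusted p under 0.05). Those fits take the spread of the remaining control replicate from the replacement samples. Without replacement 2, and equally without replacement 3, 4 carriers passed, which in both cases were Slc13a1, Slc2a2, Slc23a1 and Slc7a2. Leaving out replacement 1 kept all 8 and gave 11 calls. The direction of the 8 was the same in each of these fits.

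**Figure D1:**
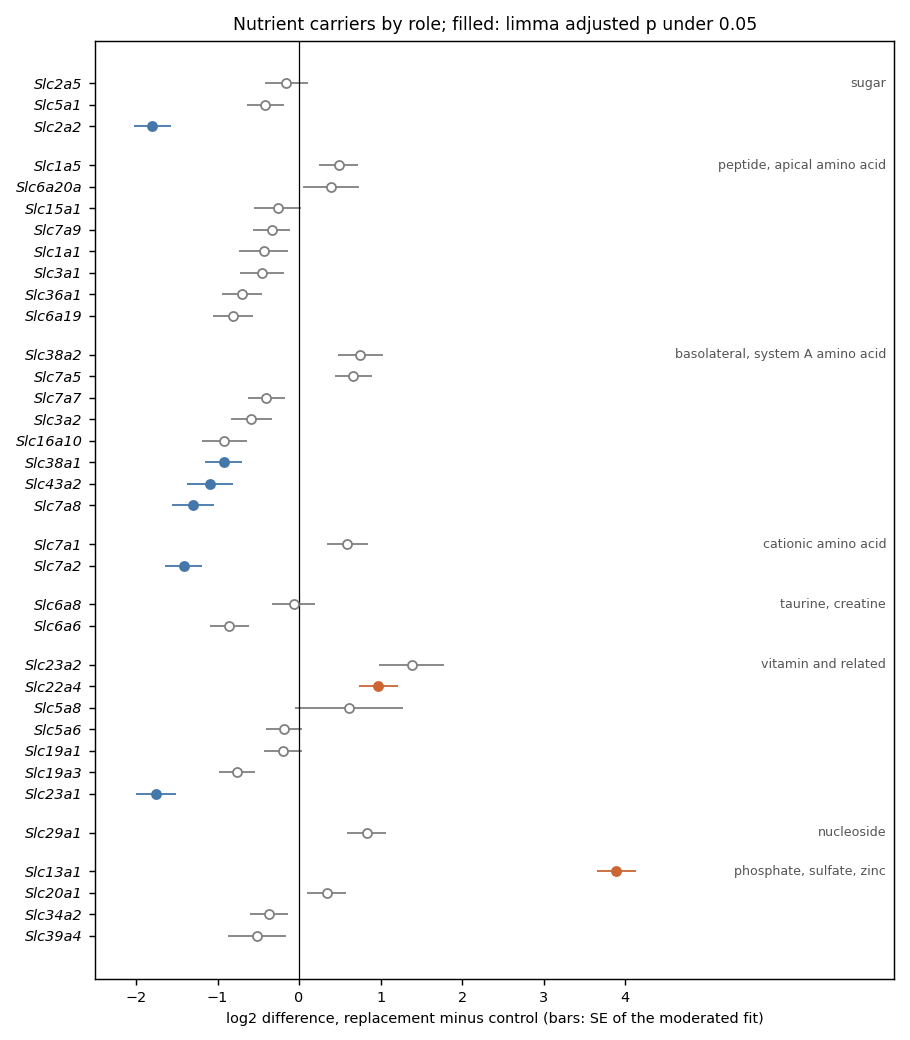
Log2 difference (replacement minus control, horizontal axis) for the 35 carriers, grouped by role, with the SE of the moderated fit as bars (n = 2 control and 3 replacement replicates). Filled points mark the 8 carriers at a limma adjusted p under 0.05; Slc13a1 lies far to the right at 3.89 and Slc2a2 farthest to the left at -1.80.

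Sugar uptake in the enterocyte runs through 3 listed carriers. Slc2a2, the facilitative carrier that releases glucose and fructose at the basolateral side, read 1847, 1982 and 1826 in the control arrays and 593, 521 and 505 in the replacement arrays. Every replacement array was far under every control array. The log2 difference was -1.80 (SE 0.227, n = 2 and 3), a 3.48-fold lower level (limma adjusted p = 0.00170). Slc5a1, the sodium-coupled glucose and galactose carrier of the brush border, had 2102, 2052 and 2005 in the control arrays and 1624, 1450 and 1583 in the replacement arrays. The groups did not overlap, yet its difference of -0.41 (SE 0.224) did not pass (adjusted p = 0.301). A second probe set of Slc5a1 read 1689, 1526 and 1416 against 919, 744 and 877. Its difference was larger, -0.90 (SE 0.237), and did not pass among all probe sets either (adjusted p = 0.0656). Slc2a5, the apical fructose carrier, ranged from 87.0 to 143 in the control and from 98.4 to 105 in the replacement arrays, with overlapping groups and a difference of -0.16 (SE 0.262, adjusted p = 0.775). The call of Slc2a2 was lost without control 1 (-1.82, adjusted p = 0.0761) and without control 2 and control 3 (-1.78, adjusted p = 0.0937), with nearly the same size.

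Of 8 brush border carriers for peptides and amino acids, none passed over all genes (limma, 2 at an unadjusted p under 0.05), and 6 had differences below 0. Slc6a19, the main sodium-coupled carrier for neutral amino acids, had 1445, 2047 and 1977 in the control and 1059, 924 and 933 in the replacement arrays. Its groups did not overlap and its difference of -0.81 (SE 0.247) missed the threshold (adjusted p = 0.0739). Slc36a1, a proton-coupled carrier of small amino acids, went from 216, 203 and 188 to 117, 111 and 154, a difference of -0.70 (SE 0.247, adjusted p = 0.116). Slc7a9 and Slc3a1 form the apical exchanger for cystine and basic amino acids. Slc7a9 had 2344, 2631 and 2792 against 2158, 1996 and 1845, and Slc3a1 869, 1340 and 1368 against 871, 746 and 763. The differences were -0.34 (SE 0.231) and -0.45 (SE 0.264), neither of which passed, and for Slc3a1 control 1 lay within the replacement values. Slc1a5, a carrier of glutamine and other neutral amino acids, was the one whose replacement arrays all lay higher, at 140, 188 and 158 against 120, 107 and 113 (0.49, SE 0.240, adjusted p = 0.253). The remaining 3 overlapped between groups: Slc15a1, the peptide carrier (-0.26, SE 0.292), Slc1a1, a glutamate carrier (-0.43, SE 0.298), and Slc6a20a, a carrier of proline (0.39, SE 0.343).

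The 8 carriers of the basolateral and system A group handle amino acid exit, exchange and cell supply. All had arrays that did not overlap between the groups, 6 lower and 2 higher in the replacement samples. Of all genes tested, 36.7% did not overlap, 18.8% lower and 17.8% higher. Only 3 of the 8 passed. The carriers were listed with earlier results of these data known, so these counts do not test the group. Slc7a8, a light chain that exchanges neutral amino acids, had 354, 285 and 268 in the control arrays and 145, 104 and 135 in the replacement arrays. It fell 2.46-fold (log2 difference -1.30, SE 0.257, adjusted p = 0.0141). Slc43a2, a facilitative carrier of large neutral amino acids, had 930, 1238 and 1100 against 604, 362 and 528. Its fall was 2.14-fold (-1.10, SE 0.282, adjusted p = 0.0422), and the second probe set gave -0.93. Slc16a10, which carries aromatic amino acids, had 529, 725 and 728 against 398, 349 and 255 on the probe set used, a difference of -0.92 (SE 0.278) that missed the threshold (adjusted p = 0.0735). Another probe set of Slc16a10 read 466, 393 and 353 against 148, 143 and 162. Tested among all probe sets, it did pass (-1.47, SE 0.237, limma adjusted p = 0.0122). A dim one also passed (fitted value -0.94), with 29.0, 33.3 and 32.1 against 8.1, 15.7 and 11.4. All replacement arrays of the dim one were under the floor. It reached the filter through the control arrays alone, so a difference was built into its selection. All 4 probe sets of Slc16a10 lay below 0. The calls of Slc7a8 and Slc43a2 were lost without replacement 2 or replacement 3 as well as without either control replicate. That of Slc43a2, unlike that of Slc7a8, was also lost with a floor of 8 and with scaling to array medians.

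The heavy chain Slc3a2 had 1360, 1626 and 1635 in the control arrays and 1147, 1038 and 815 in the replacement arrays, and its light chain partner Slc7a7, which exports basic amino acids, 1384, 1402 and 1440 against 1178, 1039 and 974. The difference of Slc3a2 was -0.59 (SE 0.252, adjusted p = 0.187). That of Slc7a7 was -0.40 (SE 0.229, adjusted p = 0.322), and neither passed. A second probe set of Slc7a7 gave 0.13, the opposite sign, so its direction depends on the probe set. Slc38a1, a sodium-coupled glutamine carrier of system A, fell 1.90-fold, from 667, 823 and 734 to 390, 353 and 397 (log2 difference -0.92, SE 0.229, adjusted p = 0.0368). Its probe set, by the suffix of its name, may be shared by several transcripts, and the other one gave -0.19. Like that of Slc7a8, its call was lost without either control replicate and without replacement 2 or replacement 3. Unlike that of Slc7a8, it was also lost with a floor of 8, scaling to array medians or the mean of all probe sets. The members that lay higher were Slc7a5, a light chain that imports large neutral amino acids, and Slc38a2, another system A carrier. Slc7a5 had 59.3, 66.0 and 53.2 against 96.2, 85.1 and 101 (0.66, SE 0.228, adjusted p = 0.107). For Slc38a2 the values were 309, 290 and 285 against 368, 564 and 609 (0.75, SE 0.277, adjusted p = 0.128), while its other 2 probe sets gave -0.37 and -0.17. Neither passed.

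Upstream sequences of 3 carriers that fell are shown because these are the carriers that fell for which the promoter table had an entry. Each run covers the 250 bases before an annotated RefSeq start (GRCm38.p6), read in the direction of the gene, with no transcribed base. Slc2a2 lies at chr3:28697653-28697902 on the plus strand, Slc7a8 at chr14:54781887-54782136 on the minus strand, and the first of 2 starts of Slc43a2 at chr11:75531444-75531693 on the plus strand. Capitals mark matches, on either strand, to the letters searched, which were GTTAAT (a half-site of the hepatocyte nuclear factor HNF1), CAAAGT (a half-site of HNF4) and TGATGNAA (an amino acid response element).
Slc2a2: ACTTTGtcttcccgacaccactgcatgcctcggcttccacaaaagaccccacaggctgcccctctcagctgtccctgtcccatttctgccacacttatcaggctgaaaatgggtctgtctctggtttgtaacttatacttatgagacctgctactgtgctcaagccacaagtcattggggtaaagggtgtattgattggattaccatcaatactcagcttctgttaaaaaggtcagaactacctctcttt
Slc7a8: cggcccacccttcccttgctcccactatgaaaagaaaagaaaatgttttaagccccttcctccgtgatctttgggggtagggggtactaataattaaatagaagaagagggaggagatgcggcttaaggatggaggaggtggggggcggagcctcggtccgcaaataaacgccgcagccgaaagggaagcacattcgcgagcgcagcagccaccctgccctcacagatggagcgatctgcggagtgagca
Slc43a2: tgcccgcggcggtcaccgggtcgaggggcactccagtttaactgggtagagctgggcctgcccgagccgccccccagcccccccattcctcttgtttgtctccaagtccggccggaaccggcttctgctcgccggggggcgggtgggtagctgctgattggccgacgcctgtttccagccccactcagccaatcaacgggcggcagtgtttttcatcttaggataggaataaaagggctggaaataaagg

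In Slc2a2 the HNF4 half-site was matched once, on the minus strand at the far end of the window, and in the other 2 sequences no match was found. Of the 36 genes, 27 matched the promoter table, with 45 starts. The HNF1 half-site was matched in 8.89% of these starts, the HNF4 half-site in 13.3% and the response element in 4.44%. Over 32851 RefSeq promoters of the same length the shares were 6.43%, 12.6% and 3.45%. These letters were chosen with the results known, and a match is a description of the window.

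Both cationic amino acid carriers had groups that did not overlap, in opposite directions, where 36.7% of all genes tested did not overlap. Slc7a2, which imports arginine and lysine, had 39.2, 44.1 and 51.6 in the control arrays and 14.5, 12.8 and 16.6 in the replacement arrays. With 2 of 3 replacement arrays under the floor, the fall was at least 2.67-fold (fitted value -1.42 on the log2 scale, SE 0.229, adjusted p = 0.00597). Its dimmer probe sets did not reach the filter. Its call was lost without control 1 (-1.56, adjusted p = 0.0823), without control 2 and control 3 (-1.28, adjusted p = 0.127) and with a floor of 32 (-0.43, adjusted p = 0.134). Slc7a1, the widespread carrier of the same amino acids, lay higher, at 349, 326 and 387 against 284, 197 and 190 (0.59, SE 0.255, adjusted p = 0.190). A second probe set of Slc7a1 gave 0.92 (SE 0.262, adjusted p = 0.0822 among all probe sets), and neither passed. The taurine carrier Slc6a6 had 621, 773 and 714 in the control and 412, 322 and 398 in the replacement arrays, a difference of -0.86 (SE 0.242) that missed the threshold (adjusted p = 0.0580), and its other probe set gave -0.08. The creatine carrier Slc6a8 ranged from 1140 to 1289 and from 989 to 1502 and overlapped (-0.06, SE 0.263). Of these taurine and creatine carriers none passed (limma, 1 at an unadjusted p under 0.05).

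**Figure D2:**
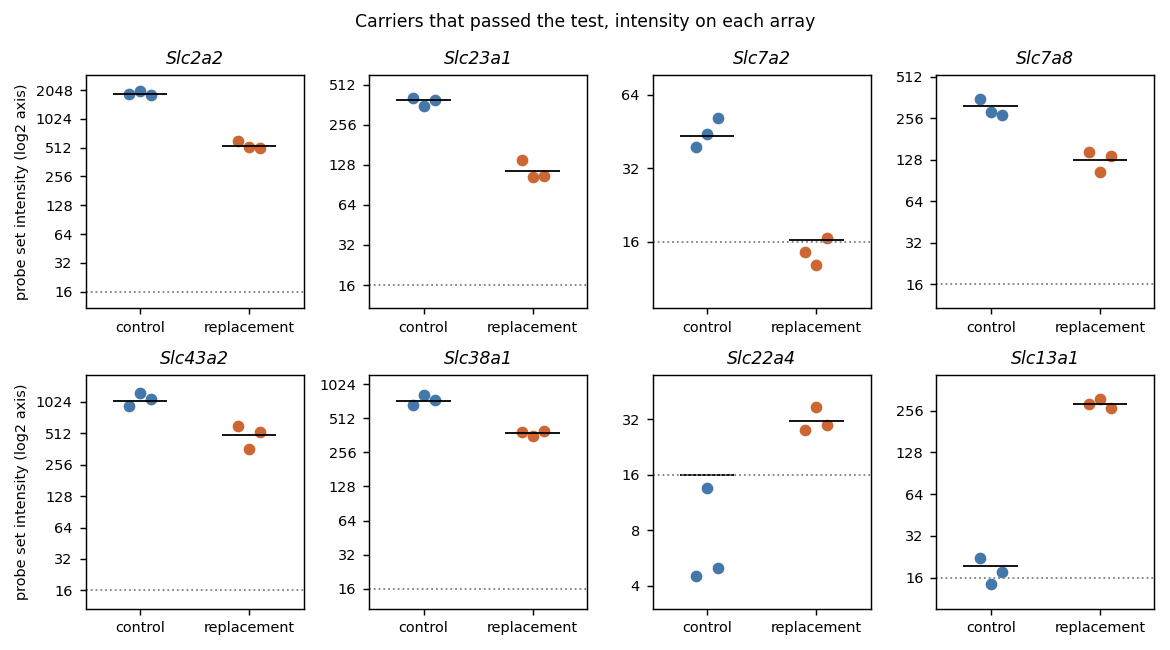
Intensity on each array (log2 axis) for the 8 carriers that passed the test, with control arrays in blue, replacement arrays in orange, the group means of log2 values, after values under 16 were set to 16, as black lines and the floor of 16 as a dotted line. In all 8 the groups are apart: 6 are lower and 2, Slc22a4 and Slc13a1, higher in the replacement samples, and every control array of Slc22a4 lies under the floor.

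The ascorbate (vitamin C) carriers differed in opposite directions. Slc23a1, the sodium-coupled ascorbate carrier of absorptive epithelia, had 406, 355 and 394 in the control arrays and 139, 104 and 106 in the replacement arrays. It fell 3.38-fold (log2 difference -1.76, SE 0.244, adjusted p = 0.00259). The call was lost without control 1 (-1.70) and without control 2 and control 3 (-1.82). A second, dim probe set of Slc23a1 read 33.7, 55.9 and 41.5 against 14.9, 12.4 and 18.0. Among all probe sets it passed as lower (fitted value -1.28, SE 0.254, limma adjusted p = 0.0260). Replacement 1 and replacement 2 were under the floor there. This probe set reached the filter through the control arrays, so a difference was built into its selection. Slc23a2, the more widespread ascorbate carrier, had 328, 304 and 385 in the replacement arrays against 221, 75.7 and 75.9 in the controls. Its replacement values lay above all controls, but control 1 stood far above control 2 and control 3. The difference of 1.38 (SE 0.401) missed the threshold (adjusted p = 0.0636) and was 2.15 without control 1 and 0.61 without control 2 and control 3.

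Other carriers of vitamins and related compounds moved less or were dim. Slc22a4, a carrier of the antioxidant ergothioneine, had 4.5, 13.5 and 5.0 in the control arrays and 28, 37.2 and 29.7 in the replacement arrays. Since all control arrays were under the floor, the rise was at least 1.96-fold (0.97 or more on the log2 scale, SE 0.239, adjusted p = 0.0357), with SE and p resting on the replacement arrays and the spread shared across genes. It reached the filter through the replacement arrays alone, so a difference was built into its selection. The value depends on the floor, with at least 1.78 at a floor of 8 and 0.07 (adjusted p = 0.728) at a floor of 32, and the call was lost on leaving out control 1, control 2 and control 3 together, replacement 2 or replacement 3. Slc19a3, the thiamine carrier, had 142, 135 and 138 against 87.8, 77.6 and 81.3, groups that were tight and apart (-0.76, SE 0.225, adjusted p = 0.0666), and its second probe set gave -0.51. Slc5a6, which carries biotin and pantothenate, had 123, 104 and 112 against 103, 98.0 and 102, barely apart (-0.19, SE 0.225). The folate carrier Slc19a1 overlapped on the probe set used (-0.20, SE 0.232). Its second probe set did not overlap, with 236, 179 and 178 against 172, 116 and 163. That difference was -0.47 (SE 0.276) and did not pass (limma adjusted p = 0.372 among all probe sets). Slc5a8, a sodium-coupled carrier of monocarboxylates including nicotinate, had 51.5, 348 and 341 in the control arrays and 129, 236 and 276 in the replacement arrays. Control 1 was the lowest of all 6 arrays and the other controls the highest, so the difference of 0.61 (SE 0.665, adjusted p = 0.637) was 1.98 against control 1 and -0.76 against control 2 and control 3. This carrier and Fabp6 were both lowest in control 1, and what the share of distal intestine contributed was not tested.

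The largest difference of the list was in Slc13a1, a sodium-coupled sulfate carrier. It read 22.3, 14.3 and 17.5 in the control arrays and 284, 309 and 268 in the replacement arrays. With 1 of 3 control arrays under the floor, the rise was at least 14.8-fold (3.89 or more on the log2 scale, SE 0.242, adjusted p = 5.35e-05). Among the alternatives run, the call was lost in the fit without control 2 and control 3 (3.68, adjusted p = 0.0571) and in the fit without eBayes (adjusted p = 0.0589). Among phosphate carriers, Slc34a2, the sodium-coupled phosphate carrier of the brush border, had 2216, 2305 and 2262 against 1934, 1507 and 1822 (-0.37, SE 0.235, adjusted p = 0.387). Slc20a1, a widespread phosphate carrier, lay the other way with 319, 290 and 266 against 337, 376 and 421 (0.34, SE 0.235, adjusted p = 0.432). Both had groups that did not overlap and neither passed. Slc39a4, the zinc importer of enterocytes, had 1605, 1144 and 1147 in the control and 1562, 747 and 729 in the replacement arrays. Replacement 1 was close to control 1, and the groups overlapped (-0.52, SE 0.359). Slc29a1, an equilibrative nucleoside carrier, had 67.3, 45 and 57.1 against 94.1, 113 and 105 (0.83, SE 0.244), which missed the threshold (adjusted p = 0.0666).

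**Figure D3:**
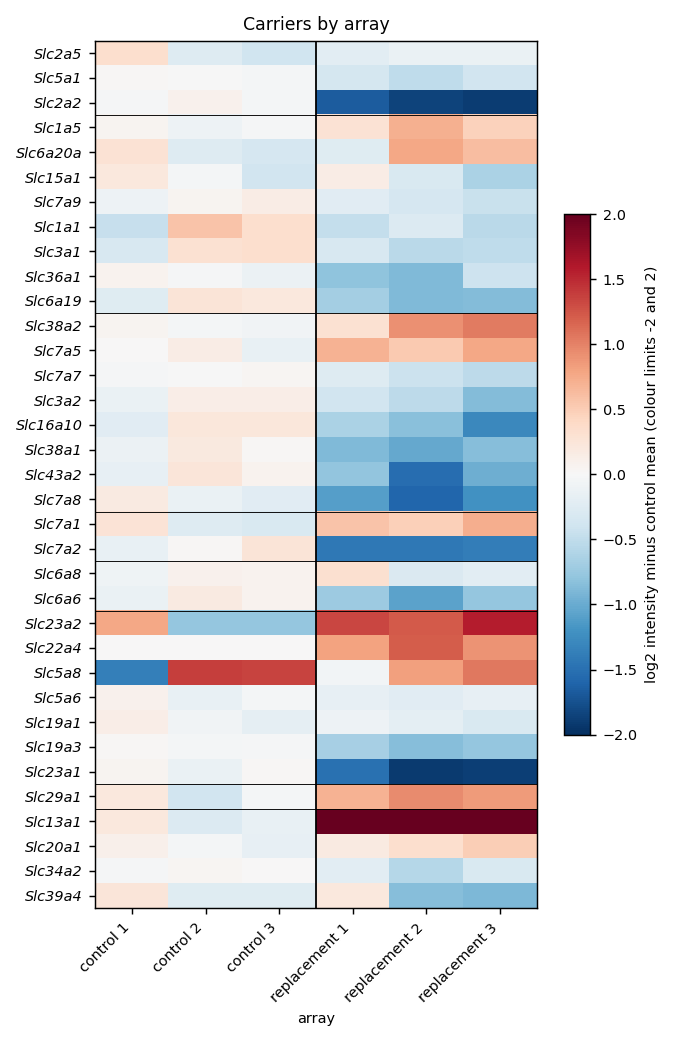
Log2 intensity of each carrier on each array minus its control mean (colour, with limits -2 and 2, which the replacement values of Slc13a1 exceed), with carriers in rows by role and the 6 arrays in columns. Control 1 parts from control 2 and control 3 most in Slc5a8 and Slc23a2, and replacement 1 parts from the other replacement arrays in Slc39a4.

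Within the control group most carriers were close. The size of the difference between control 1 and the mean of control 2 and control 3 had a median of 0.26 (log2) over the 35 carriers and 0.26 over all genes tested. It was 1 or more in Slc5a8 and Slc23a2. The median size of the group difference was 0.61 for the carriers and 0.33 over all genes tested. Each replacement sample showed the list lower than the controls, with medians of -0.22, -0.34 and -0.41 in replacement 1, replacement 2 and replacement 3.

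Split by the sex read from Xist and Eif2s3y, the samples gave a pair of comparisons with no array in common: replacement 2 and replacement 3 against control 1 in females, and replacement 1 against control 2 and control 3 in males. Of the 35 carriers, 28 had the same direction in both, 18 lower and 10 higher, or 80.0%, where 62.7% of all genes tested did. The carriers were listed with earlier results of these same samples known, so this share does not test them as a list. Their differences were also larger, with a median size of 0.61 against 0.33 over all genes tested. The 8 carriers that passed were among the 28, though they were called on these same samples. Slc2a2 had -1.85 in females and -1.68 in males, Slc23a1 -1.95 and -1.43, and Slc13a1 3.69 and 4.09. With sex as a covariate all 8 passed and Slc23a2 joined them.

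**Figure D4:**
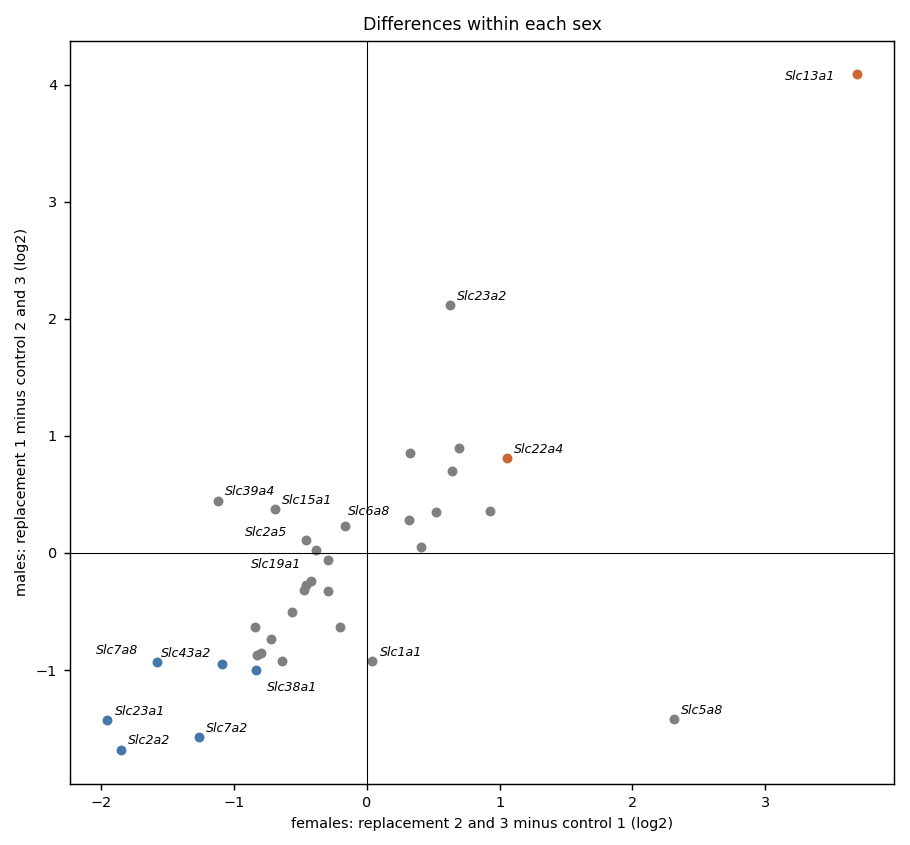
Log2 difference within females (horizontal axis, replacement 2 and 3 minus control 1) against that within males (vertical axis, replacement 1 minus control 2 and 3) for 35 carriers; blue and orange mark carriers that passed as lower and higher. The 6 lower ones lie at lower left and the 2 higher ones at upper right, while Slc5a8 (2.31 and -1.42) and Slc39a4 (-1.12 and 0.45) change sign.

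Of the 35 carriers, 17 had more than 1 probe set past the filter, and 56 probe sets in all were kept. The probe sets of Slc7a7 and Slc38a2 had both signs. In the other 15 genes they shared 1 sign, with sizes that differed most in Slc16a10, Slc38a1, Slc6a6 and Slc23a2. In the fit over all kept probe sets 7 of the 56 passed as lower, from Slc2a2, Slc7a8, Slc7a2, Slc23a1 and Slc16a10, and 1, of Slc13a1, as higher. Slc43a2 (adjusted p = 0.0664), Slc38a1 (adjusted p = 0.0563) and Slc22a4 (adjusted p = 0.0560) did not pass there. The share of all kept probe sets that passed is not given, so these counts only describe the carriers. Those of Slc7a2 and Slc13a1 and the dim ones of Slc23a1 and Slc16a10 reached the filter only through the group in which they were high.

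**Figure D5:**
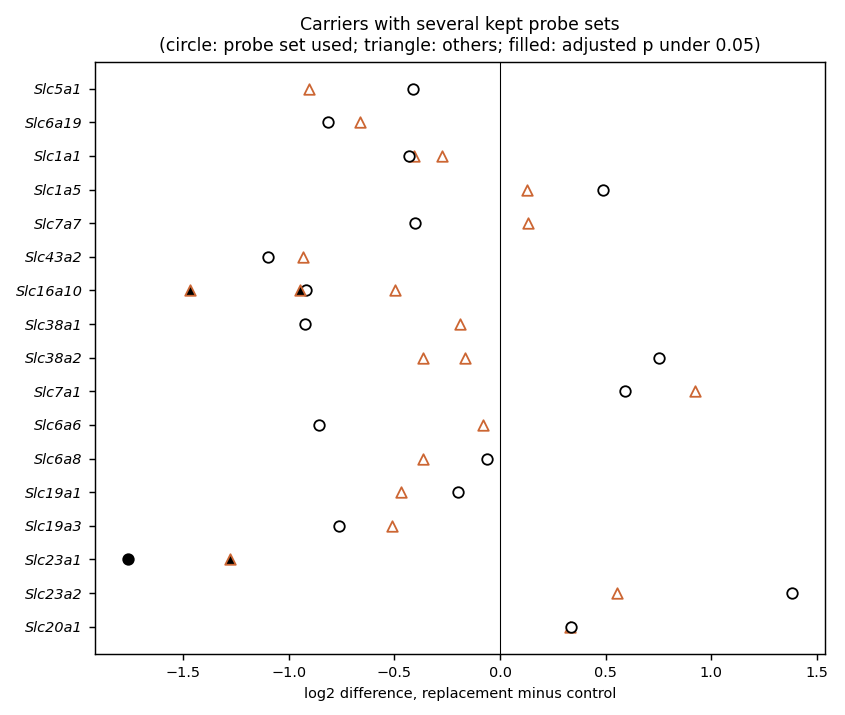
Log2 difference (replacement minus control) of every kept probe set for the 17 carriers with more than 1, with the probe set used as a circle, the others as triangles and filled symbols for an adjusted p under 0.05 among all probe sets. Symbols fall on both sides of 0 for Slc7a7 and Slc38a2, and all 4 of Slc16a10 lie below 0.

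Further carriers of the same kinds of substrate were taken from a list of 66 that is not independent of earlier results. Of 50 that could be tested, 10 fell and 3 rose, or 26.0%, against 9.17% of all genes tested (4.63% lower and 4.54% higher), and their median difference was -0.18. The glucose carrier Slc2a1, which is widespread and serves cell supply, had 56.6, 104 and 119 in the control and 482, 706 and 670 in the replacement arrays. It rose 7.70-fold (log2 difference 2.94, SE 0.327, adjusted p = 9.22e-04) where Slc2a2 fell. Slc34a3, a sodium-coupled phosphate carrier, fell 5.06-fold (SE 0.240, adjusted p = 6.72e-04), Slc39a8, a metal ion importer, 4.62-fold (SE 0.231, adjusted p = 7.25e-04) and Slc43a3, a purine base carrier, 5.88-fold (SE 0.276, adjusted p = 8.38e-04). Every one of these 4 calls was lost without control 1, and also without control 2 and control 3, with adjusted p between 0.0635 and 0.0780.

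Among 23 tested partners and regulators of carriers, of 29 listed, 3 fell and 1 rose, or 17.4%, against 9.17% of all genes tested. This list too was chosen with earlier results known. Pdzk1, a scaffold that holds carriers at the brush border, had 1430, 1617 and 1668 against 833, 610 and 552, a fall of 2.34-fold (-1.23, SE 0.260, adjusted p = 0.0197). Anpep, the brush border aminopeptidase that frees amino acids from peptides, fell by 1.16 (SE 0.299, adjusted p = 0.0422), and Prdm1, a repressor active in suckling enterocytes, by 1.08 (SE 0.244, adjusted p = 0.0254). Myc, a growth factor-responsive transcription factor, rose by 1.13 (SE 0.294, adjusted p = 0.0436). Each of the 4 calls was lost without either control replicate and without replacement 2 or replacement 3, with the direction kept.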

How the data were processed

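RNA of 6 samples was measured on Affymetrix MOE430 arrays. The authors deposited linear intensity values per probe set; the submitters' processing notes name GCRMA and limma, and the step behind these values was not stated. A trimmed mean of 100 per array shows that they were scaled. Values under 16 were set to 16 and taken as log2. Probe sets at 16 or more on at least 3 arrays were kept, 26664 of 45101. Of all probe sets, 34945 had 1 gene symbol, 932 several and 9160 none, and 34741 matched a current gene. Each gene was read by its brightest kept single-gene probe set, which gave 12994 genes. Control 2 and control 3 were averaged before the fit.

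Groups were compared with lmFit and eBayes (limma 3.58.1, R 4.3.3), with Benjamini-Hochberg adjustment over all genes and a threshold of 0.05; the fit was tested on simulated data. A fold against values at the floor is a lower bound. Levels of different probe sets were not compared. The number of arrays limits the precision. All members are named, and of each further list up to 4 genes with the smallest p. The members and lists were chosen with earlier results of these data known. Same-numbered samples did not deviate together (correlations -0.024, -0.0029 and -0.059), so numbers were not taken as pairs. Alternatives changed the floor, filter, scaling, probe set choice, replicates and variance model.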

Additional observations from a re-analysis of the deposited data

Results flagged for a closer look

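In 5 of the 35 carriers every replacement sample moved one way in females and the other way in males. Slc5a8, a monocarboxylate carrier, had a log2 difference of 2.31 in females and -1.42 in males. For Slc39a4, the zinc importer, the differences were -1.12 and 0.45, and for Slc15a1, the peptide carrier, -0.69 and 0.37. Slc2a5, the fructose carrier, had -0.46 in females and 0.11 in males, and Slc6a8, the creatine carrier, -0.17 and 0.23. No interaction of sex and genotype passed for any carrier or any gene (limma, smallest adjusted p over the carriers 0.586; Slc5a8, Slc39a4 and Slc23a2 had an unadjusted p under 0.05, at 0.00316, 0.0134 and 0.0421). Opposite directions of this kind were seen in 22% of all genes tested, a larger share than among the carriers, so they are not particular to the carriers. Sex, control 1 and its low Fabp6 cannot be told apart here, since control 1 was the one female control.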

How the results depend on the processing

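The median difference of the carriers kept its sign in all alternatives run and ranged from -0.44 to -0.33 on leaving out a replicate. The count of carriers called was 8 (2 higher, 6 lower). It was 17 (6 and 11) with all 6 arrays as separate replicates, 15 (5 and 10) with array weights, 3 (1 and 2) with no filter, 4 (1 and 3) with a floor of 32, and 0 (0 and 0) in the fit without eBayes, where 16 had an unadjusted p under 0.05. With a replicate block on all 6 arrays it was 14 (4 higher, 10 lower). Higher calls were 1 with quantile normalization and 1 at a fold of at least 2. Leaving out 1 replicate gave 0 to 11 calls, 0 to 3 higher and 0 to 8 lower. Further carriers called, 13, became 2 with no filter, 3 with a floor of 32, 0 without eBayes and 0 to 16 on leaving out a replicate. Partners called, 4, became 0 with no filter, 2 with a floor of 8, 0 with a floor of 32, 2 with scaling to array medians, 0 without eBayes and 0 to 5 on leaving out a replicate. The direction turned on leaving out a replicate for Slc2a5 (-0.49 to 0.17), Slc1a1 (-0.89 to 0.023), Slc6a8 (-0.25 to 0.050) and Slc5a8 (-0.76 to 1.98), and for Slc6a8 with sex as a covariate (0.0027). Over all genes, 1191 calls became 2351 with all 6 arrays, 2119 with the replicate block, 1824 with array weights, 164 with no filter, 292 with a floor of 32 and 32 without eBayes. Leaving out control 1 gave 13, leaving out control 2 and control 3 gave 4, and leaving out replacement 2 or replacement 3 gave 532 or 372. The cause was not tested, except that leaving out a replicate lowers the number of samples.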

Other observations

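Of the further carriers that passed, 9 lie outside the 4 described and were chosen for naming after their values were seen. Slc5a11, a sodium-coupled myo-inositol carrier, had 151, 180 and 183 in the control arrays and 48.9, 32.9 and 46.0 in the replacement arrays, a fall of 3.94-fold (SE 0.262 on the log2 scale, limma adjusted p = 0.00212). Of the further list's 7 Slc38 relatives, which carry glutamine and other amino acids, 5 could be tested and 3 fell. Slc38a3 had a log2 difference of -1.14, Slc38a6 of -1.57 and Slc38a7 of -1.17, with adjusted p of 0.0289, 0.0337 and 0.0344. Slc38a9 (-0.02) and Slc38a10 (0.05) did not pass and overlapped between the groups. The zinc and iron importer Slc39a14 fell by 1.16 (adjusted p = 0.0169), the lysosomal carrier Slc46a3 by 1.17 (adjusted p = 0.0205) and the intracellular sugar carrier Slc2a8 by 1.29 (adjusted p = 0.0431). Slc1a4, a neutral amino acid carrier, rose by at least 1.11 (limma adjusted p = 0.0331). Slc44a2, a choline carrier, rose by at least 1.37 (adjusted p = 0.0337). Each had 1 control array under the floor. Both reached the filter only through the replacement arrays, in which they were high, so a difference was built into their selection.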
